A study of Mus musculus with 8 samples.

Results

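The expression of 10 genes of hepatic glucose production and insulin action was measured in mouse liver: the gluconeogenic enzymes *Pck1*, *G6pc*, *Fbp1* and *Pcx*, the regulators *Ppargc1a*, *Foxo1* and *Foxo3*, and the genes of the insulin response *Irs2*, *Igfbp1* and *Insr*. They were chosen by symbol, all 10 were present among the 23337 gene symbols of each of the 8 libraries, and all 10 were among the 14328 genes that passed the filter on low counts. The livers came from 12-week-old C57BL/6 mice of 4 groups with 2 libraries each. WT mice, which carried the floxed *HRD1* alleles without Cre, and HRD1Alb mice, in which a Cre driven by the albumin promoter deletes *HRD1* in hepatocytes, were taken either after an overnight fast or after the fast and 4 h of refeeding. The labels do not say whether the libraries of a group came from separate animals, so p-values measure the spread between these libraries, which may be technical.

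During fasting, glucagon and glucocorticoids raise the transcription of the gluconeogenic genes through the factor CREB, its coactivators and the coactivator PGC-1alpha, and FOXO factors in the nucleus keep the same genes active. After a meal, insulin binds its receptor, insulin receptor substrates pass the signal to AKT, and AKT phosphorylates FOXO factors, which then leave the nucleus. *Igfbp1*, *G6pc*, *Pck1* and *Irs2* are known as genes that insulin represses by this route. HRD1, listed under its symbol *Syvn1*, is a ubiquitin ligase of the endoplasmic reticulum membrane.

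The promoters of these 4 genes are shown because their repression by insulin is known to pass through promoter elements. The 250 bases before the RefSeq start on GRCm38.p6 were searched on both strands for GTAAACA (a FOXO site), CAAAACA (the core of the insulin response element), TGACGTCA (the cAMP response element) and TTACGTCA (its variant in *Pck1*). The last 2 share the letters ACGTCA. Capitals mark a match, and sequences are given 5′ to 3′ on the gene's strand. They stop before the first base that GENCODE M21 gives the gene, where the 250 bases reach it. Those of *Pck1*, *G6pc* and *Igfbp1* therefore end before the RefSeq start, and that of *Irs2* is the whole window.

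Pck1 promoter, chr2:173152823-173153047, plus strand: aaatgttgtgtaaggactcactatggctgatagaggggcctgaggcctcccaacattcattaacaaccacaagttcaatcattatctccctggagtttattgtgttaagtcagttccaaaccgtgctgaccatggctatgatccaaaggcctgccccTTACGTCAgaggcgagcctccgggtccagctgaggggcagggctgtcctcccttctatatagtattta

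G6pc promoter, chr11:101367466-101367560, plus strand: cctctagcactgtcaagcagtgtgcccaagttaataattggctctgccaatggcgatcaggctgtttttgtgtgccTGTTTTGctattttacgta

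Irs2 promoter, chr8:11008930-11009179, minus strand: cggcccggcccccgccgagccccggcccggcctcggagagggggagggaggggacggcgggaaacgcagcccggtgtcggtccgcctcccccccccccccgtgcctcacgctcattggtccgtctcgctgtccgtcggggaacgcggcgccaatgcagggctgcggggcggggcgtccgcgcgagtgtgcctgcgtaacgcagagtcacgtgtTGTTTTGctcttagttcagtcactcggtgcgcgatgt

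Igfbp1 promoter, chr11:7197537-7197781, plus strand: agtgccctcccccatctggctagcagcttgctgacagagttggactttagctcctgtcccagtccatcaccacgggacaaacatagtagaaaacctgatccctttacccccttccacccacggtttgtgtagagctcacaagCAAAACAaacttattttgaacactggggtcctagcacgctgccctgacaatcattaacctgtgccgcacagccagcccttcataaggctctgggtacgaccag

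The variant cAMP element of *Pck1* began 93 bases before the RefSeq start, from which all these distances are counted. The insulin response letters began 108 bases before the start of *Igfbp1*, and on the opposite strand, as TGTTTTG, 174 bases before that of *G6pc* and 37 bases before that of *Irs2*. Among all 32851 promoters of this length, 5.56% held CAAAACA, 0.447% held TTACGTCA, 1.55% held TGACGTCA and 3.17% held GTAAACA. Of the 10 genes, 9 had a promoter entry, *Insr* being the other, and the windows of *Fbp1*, *Pcx*, *Ppargc1a*, *Foxo1* and *Foxo3* held none of the 4 motifs. A match describes the letters of the window and not a bound site.

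Total counts per library ranged from 40210576 to 49117080, so that 3 counts, taken as the detection floor, equal 0.0611 to 0.0746 CPM, the counts scaled to a common library size. *Syvn1* was at 111 and 99.8 normalized CPM in the fasted WT libraries and at 32.6 and 31.5 in the fasted HRD1Alb libraries. After refeeding it was at 637 and 305 in WT and at 453 and 132 in HRD1Alb, so that replicate 1 of refed HRD1Alb lay above replicate 2 of refed WT. The counts sum over the whole gene. *Syvn1* therefore did not separate the refed libraries by label, with a log2 difference of -0.69 (adjusted p = 0.391) that was -1.84 without replicate 1 of refed HRD1Alb and -0.06 without replicate 2. *Scd1* was at 156 and 241 CPM in refed HRD1Alb against 2377 and 2170 in refed WT. It is named for its small p in this comparison and in the fasted one, where it was also called lower in HRD1Alb (log2 difference -2.95). The other genes called between fasted genotypes in the lists of related genes below were *Pck2*, *Fgf21* and *Me1*. In refed liver each kept its fasted direction, without overlap between the genotypes. Whether the refed labels are right was not tested. In the refed comparison 30.1% of all genes tested had both HRD1Alb libraries below both WT libraries, and 30.7% had both above. HRD1Alb names refed libraries by their label throughout, including where a direction is drawn from them. Replicate 2 of refed HRD1Alb stood apart in another way. Its log2 ratio to replicate 1 fell with the gene's exon length (Spearman rho -0.580 across 12968 genes, against -0.111 to 0.0312 between the replicates of the other groups). Against the mean of the refed WT libraries, rho with length was -0.482 for replicate 2 and -0.0561 for replicate 1. For many members, results that use the refed HRD1Alb libraries are given also without replicate 1 or without replicate 2. Not every value that moved is given. No pair of replicates agreed within sampling noise. Of 10 lists of cell type markers, the Kupffer cell and macrophage list stood at a summed 171 to 227 CPM in fasted and 154 to 309 in refed HRD1Alb, against 65.8 to 76.1 and 73.5 to 75.6 in WT, and the 7 hepatocyte markers summed to 93773 to 94675 CPM in fasted and 66143 to 105509 in refed HRD1Alb, against 141976 to 155038 and 110676 to 118879 in WT. All 6 macrophage markers were called higher in refed HRD1Alb than in refed WT, with *Col1a1* and *Des* of 6 stellate cell markers and *S100a9* of 3 neutrophil markers; in the fasted comparison *Cd68* and *Emr1* were called higher. The hepatocyte, endothelial, cholangiocyte, lymphocyte, erythroid, adipocyte and exocrine pancreas lists had no called gene between the genotypes. Only 2 of 4 erythroid, 1 of 4 adipocyte and 1 of 5 exocrine pancreas markers passed the filter on low counts and were tested. Refeeding called *Cyp2e1* and the adipocyte marker *Cidec* lower in HRD1Alb. *Lep*, *Pnlip*, *Cpa1* and *Prss2*, which define adipocytes and exocrine pancreas, were at 0 in all libraries, and *Hba-a1* and *Hba-a2* were listed at 0. In bulk liver, fewer cells of a type and less RNA per cell cannot be told apart.

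Refeeding lowered *Pck1*, *G6pc* and *Igfbp1* in both genotypes, and *Ppargc1a* and *Insr* were called lower in HRD1Alb liver only, a difference in calls that is not a tested difference between genotypes. The fall ran from 8.24-fold for *Pck1* to 83.9-fold for *Igfbp1* in WT. *Fbp1* and *Pcx* did not pass the test in either genotype. A gene was called at a Benjamini-Hochberg adjusted p under 0.05 in edgeR's quasi-likelihood test over all tested genes. In WT 3 of 10 members were called lower and none higher, where 1.41% of all genes tested were called lower, 1.2% higher and 2.61% in either direction. In HRD1Alb 5 of 10 were called lower, where 5.05% of all genes were called lower, 5.43% higher and 10.5% in either direction. The members' median log2 change was -0.86 in WT and -2.04 in HRD1Alb, beside 0.00 and 0.02 over all genes tested.

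**Figure D1:**
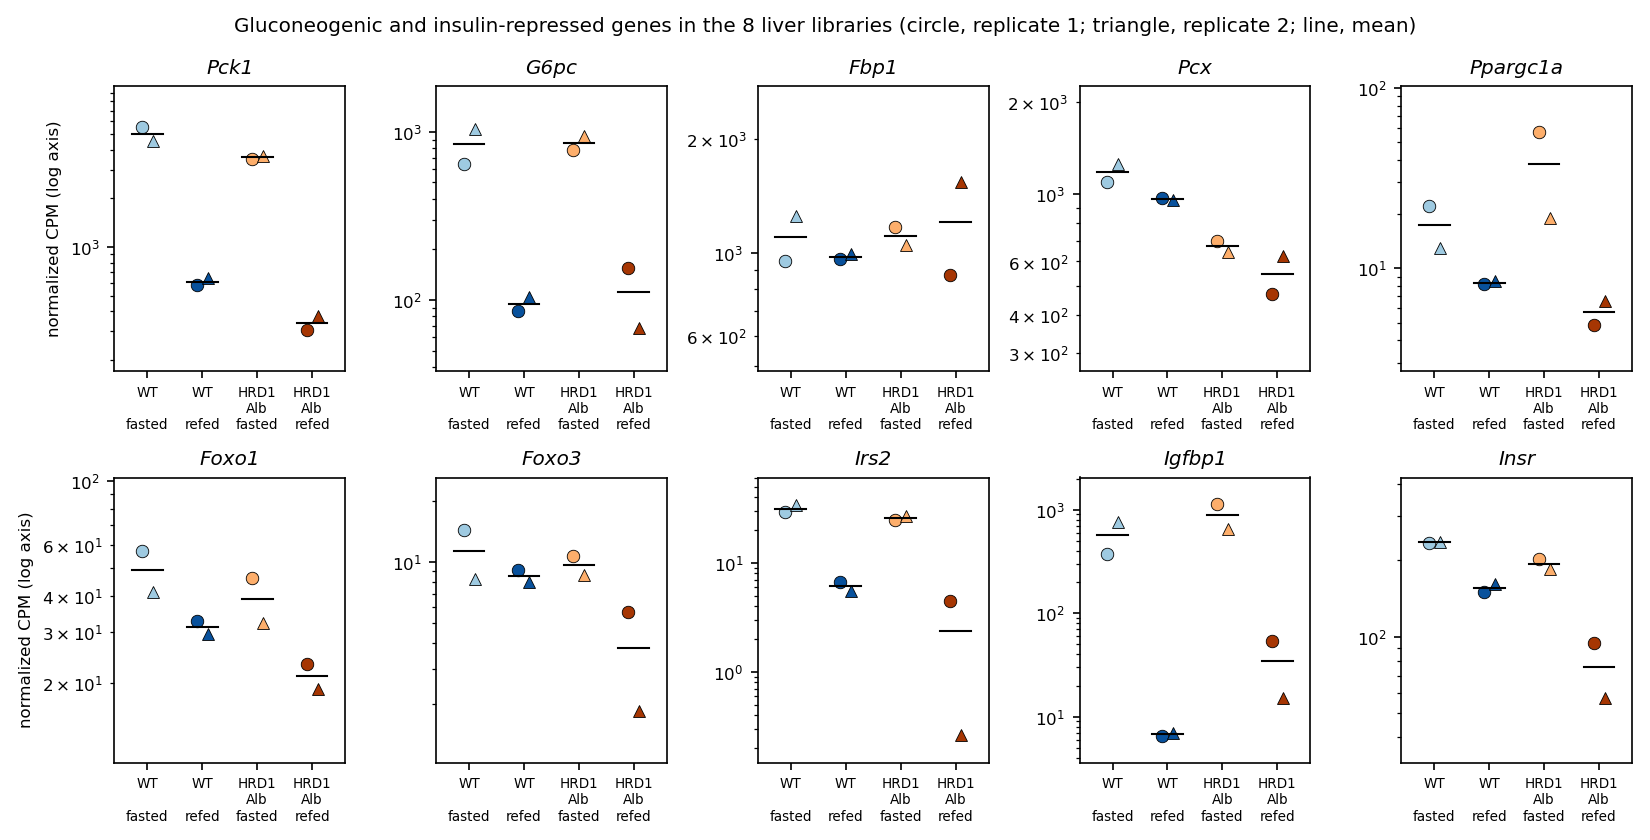
Normalized CPM on a log axis (y) for the 10 genes in the WT and HRD1Alb groups, fasted and refed (x); circles are replicate 1, triangles replicate 2 and lines the mean of 2. *Pck1*, *G6pc* and *Igfbp1* dropped with refeeding in both genotypes, *Pcx* was lower in HRD1Alb at both times, and the 2 refed HRD1Alb libraries were far apart for *Irs2*, at 4.43 and 0.263 CPM.

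Among the enzymes, *Pck1* (phosphoenolpyruvate carboxykinase, which turns oxaloacetate into phosphoenolpyruvate; chr2:173153048-173159273, plus strand, GRCm38) was at 5523 and 4511 CPM in fasted WT and at 578 and 640 in refed WT. It was at 3530 and 3672 CPM in fasted HRD1Alb and at 306 and 374 in refed HRD1Alb. The fasted and refed libraries of each genotype were apart, and refed *Pck1* was 12.1% of the fasted level in WT and 9.44% in HRD1Alb. The log2 changes were -3.04 (SE 0.21, adjusted p = 0.00488) and -3.40 (SE 0.21, adjusted p = 0.00183). *G6pc* (the catalytic subunit of glucose-6-phosphatase, which releases free glucose; chr11:101367561-101377903, plus strand) was at 646 and 1040 CPM in fasted WT and at 85.7 and 105 in refed WT, 11.3% of the fasted level. In HRD1Alb it was at 775 and 945 CPM when fasted and at 155 and 68.1 when refed, 13.0% of the fasted level. Here too no refed library reached a fasted one, and the refed HRD1Alb libraries spread to both sides of the refed WT libraries. The log2 changes of *G6pc* were -3.14 (SE 0.43, adjusted p = 0.0228) in WT and -2.95 (SE 0.42, adjusted p = 0.0112) in HRD1Alb.

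The 2 enzymes at the other steps did not follow. *Fbp1* (fructose-1,6-bisphosphatase; chr13:62864753-62888282, minus strand) was at 952 and 1255 CPM in fasted WT and at 959 and 989 in refed WT. In HRD1Alb it was at 1169 and 1049 CPM when fasted and at 871 and 1541 when refed, so that fasted and refed libraries overlapped in both genotypes. Its log2 change was -0.18 (SE 0.28, adjusted p = 0.843) in WT and 0.12 (SE 0.28, adjusted p = 0.791) in HRD1Alb. *Pcx* (pyruvate carboxylase, which makes oxaloacetate from pyruvate in mitochondria; chr19:4510472-4621752, plus strand) was at 1096 and 1258 CPM in fasted WT, at 972 and 957 in refed WT, at 701 and 643 in fasted HRD1Alb and at 471 and 624 in refed HRD1Alb. Refed libraries lay below fasted ones in both genotypes, by a log2 value of -0.29 (SE 0.19, adjusted p = 0.538) in WT and -0.30 (SE 0.19, adjusted p = 0.309) in HRD1Alb, which did not pass the test. The change of *Pcx* in HRD1Alb was -0.11 without replicate 1 of refed HRD1Alb and -0.51 without replicate 2.

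Of the regulators, *Ppargc1a*, which encodes PGC-1alpha (chr5:51454250-51567726, minus strand), was at 22.1 and 12.9 CPM in fasted WT and at 8.15 and 8.51 in refed WT. In HRD1Alb it was at 57.0 and 18.9 CPM when fasted and at 4.84 and 6.62 when refed. The refed libraries lay below the fasted ones in each genotype. The fasted HRD1Alb libraries themselves differed more from each other than those of any other group did for this gene. The log2 change was -1.07 (SE 0.50, adjusted p = 0.355) in WT and -2.73 (SE 0.52, adjusted p = 0.0236) in HRD1Alb. The call in HRD1Alb was lost without replicate 1 of fasted HRD1Alb, where the log2 change was -1.73, without either refed WT library, when only the HRD1Alb libraries were fitted, and with the length correction and replicate block together.

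The FOXO factors, through which insulin acts on these promoters, moved less. *Foxo1* (chr3:52268336-52353221, plus strand) was at 56.9 and 41.4 CPM in fasted WT, at 32.7 and 29.7 in refed WT, at 45.9 and 32.3 in fasted HRD1Alb and at 23.2 and 19.1 in refed HRD1Alb. *Foxo3* (chr10:42181841-42276755, minus strand) was at 14.4 and 8.27 CPM in fasted WT, at 9.14 and 7.96 in refed WT, at 10.7 and 8.68 in fasted HRD1Alb and at 5.67 and 1.86 in refed HRD1Alb. Fasted and refed libraries were apart for *Foxo1* in both genotypes and for *Foxo3* in HRD1Alb, and overlapped for *Foxo3* in WT. The log2 changes of *Foxo1* were -0.66 (SE 0.24, adjusted p = 0.232) in WT and -0.88 (SE 0.24, adjusted p = 0.0587) in HRD1Alb. Those of *Foxo3* were -0.41 (SE 0.49, adjusted p = 0.778) and -1.35 (SE 0.50, adjusted p = 0.118). Neither gene was called in either genotype, and both were called lower in HRD1Alb by DESeq2 and when its refed replicate 1 was left out. With the length correction the change of *Foxo1* in HRD1Alb was -0.38. That of *Foxo3* was -2.38 without refed replicate 1 and -0.77 without replicate 2.

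*Igfbp1*, which encodes a secreted protein that binds insulin-like growth factors (chr11:7197782-7202546, plus strand), had the largest log2 fall of the 10 genes in both genotypes with all libraries. Without replicate 1 of refed HRD1Alb, the fall of *Irs2* in HRD1Alb was larger (-6.60, against -5.89 for *Igfbp1*). *Igfbp1* was at 374 and 756 CPM in fasted WT and at 6.47 and 7.01 in refed WT, 1.19% of the fasted level. In HRD1Alb it was at 1138 and 645 CPM when fasted and at 53.7 and 15.1 when refed, 3.86% of the fasted level and a 25.9-fold fall. The refed WT libraries were close together, the refed HRD1Alb libraries were 3.57-fold apart and both lay above WT. The log2 changes were -6.39 (SE 0.75, adjusted p = 0.0154) in WT and -4.69 (SE 0.69, adjusted p = 0.0117) in HRD1Alb.

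*Irs2*, an insulin receptor substrate (chr8:10984681-11008458, minus strand), was at 29.2 and 33.7 CPM in fasted WT and at 6.59 and 5.54 in refed WT, 19.3% of the fasted level. In HRD1Alb it was at 24.6 and 26.8 CPM when fasted and at 4.43 and 0.263 when refed, the last value resting on 12 counts where replicate 1 had 262. All refed libraries were below all fasted ones, yet *Irs2* passed the test in neither genotype, with log2 changes of -2.37 (SE 0.87, adjusted p = 0.232) in WT and -3.43 (SE 0.91, adjusted p = 0.0553) in HRD1Alb. It was called lower in both genotypes when either refed HRD1Alb library was left out, and its change in HRD1Alb was then -6.60 without replicate 1 and -2.54 without replicate 2. *Insr*, the insulin receptor (chr8:3122061-3279617, minus strand), was at 235 and 236 CPM in fasted WT and at 149.8 and 162 in refed WT. In HRD1Alb it was at 202 and 185 CPM when fasted and at 94.0 and 57.1 when refed. Refed *Insr* was 66.0% of the fasted level in WT and 39.0% in HRD1Alb, with no overlap in either. The log2 changes were -0.60 (SE 0.24, adjusted p = 0.263) and -1.36 (SE 0.24, adjusted p = 0.0180). With a correction for transcript length the change in HRD1Alb was -0.89 and still called.

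**Figure D2:**
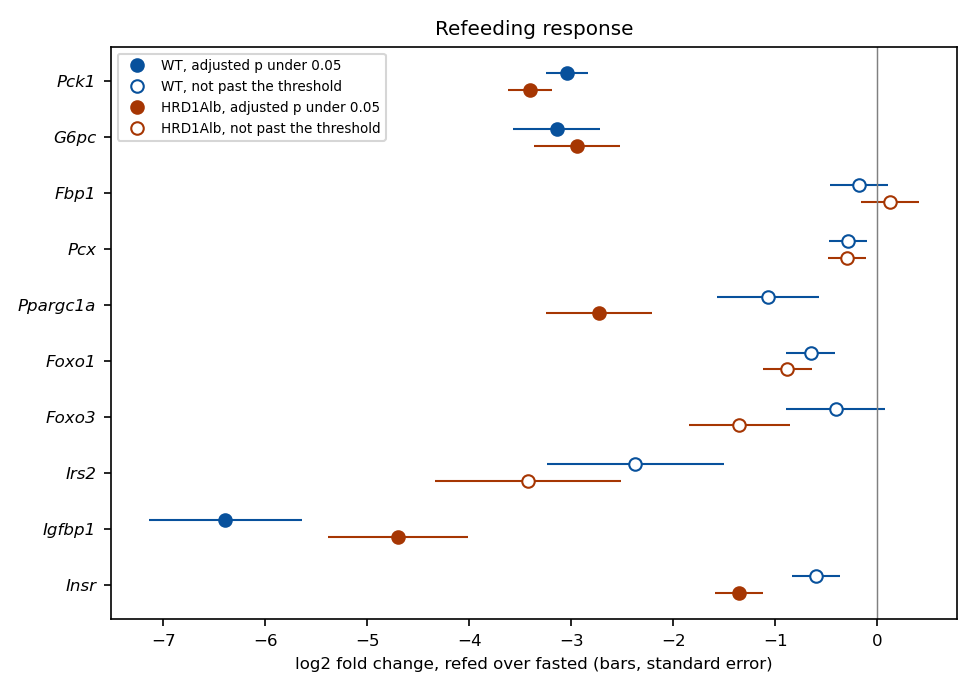
Log2 fold change of refed over fasted liver (x) for each of the 10 genes (y) in WT (blue) and in libraries labelled HRD1Alb (brown), with bars of 1 standard error from 2 libraries a group; filled circles passed an adjusted p of 0.05. *Igfbp1* lies farthest to the left, at -6.39 and -4.69, and *Fbp1* and *Pcx* lie next to 0.

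Counted by overlap, 8 members in WT and 9 in HRD1Alb had both refed libraries below both fasted ones, where 29.6% and 29.5% of all genes tested did. No member had both refed libraries above. The WT calls over the whole table depended on each library outside refed HRD1Alb. Without either refed WT library all were lost, those of the members included, in a fit where the lone library is assumed to vary like the other groups. Without any 1 of the fasted libraries, of either genotype, most WT calls over the whole table were lost. *Pck1* was the only member still called in each of the 4 fits that left out 1 fasted library, in WT and in HRD1Alb. Without replicate 1 of refed HRD1Alb 8 members were called in HRD1Alb, where 51.4% of all genes tested in that fit were, and without replicate 2 there were 7, where 19.7% were. In both cases these included the 5 called with all libraries, and in WT 5 members were called, *Irs2* and *Insr* being added, where 17.2% and 17.0% of all genes were. Without either refed WT library the calls of *Ppargc1a* and *Insr* in HRD1Alb were lost, in fits that also called fewer genes over the whole table. No member and no gene of the whole table was called in HRD1Alb when only its 4 libraries were fitted. With only the WT libraries, 6 members and 1882 genes of the whole table were called in WT.

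Between the genotypes in fasted liver no member was called, where 0.433% of all genes tested were called lower, 0.921% higher and 1.35% in either direction. *Pcx* was at 57.1% of the WT level in fasted HRD1Alb, with a log2 difference of -0.81 (SE 0.19, adjusted p = 0.0893), and *Pck1* was at 71.8% (log2 difference -0.48, SE 0.19, adjusted p = 0.247). Both had 2 HRD1Alb libraries below the 2 WT libraries and were the 2 members with an unadjusted p under 0.05, which 18.4% of all genes had. DESeq2 called *Pcx* alone, and limma-trend called no member. *Pcx* was also called when either refed HRD1Alb library was left out, where 21.7% and 21.3% of all genes were called. *G6pc* and *Fbp1* had log2 differences of 0.03 (SE 0.39, adjusted p = 0.979) and 0.01 (SE 0.28, adjusted p = 0.993). The WT and HRD1Alb libraries of these 2 genes overlapped.

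*Ppargc1a* and *Igfbp1* had higher means in fasted HRD1Alb, but their libraries overlapped with WT. The log2 differences were 1.12 (SE 0.49, adjusted p = 0.287) and 0.66 (SE 0.59, adjusted p = 0.617). *Irs2* and *Insr* had HRD1Alb libraries below WT by log2 values of -0.29 (SE 0.82, adjusted p = 0.897) and -0.29 (SE 0.23, adjusted p = 0.581). *Foxo1* and *Foxo3* overlapped, at -0.33 (SE 0.24, adjusted p = 0.523) and -0.23 (SE 0.48, adjusted p = 0.857). In all, 4 members had HRD1Alb below WT without overlap, where 34.2% of all genes tested did, and none had it above. The members' median difference was -0.26 beside -0.02 over all genes.

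In refed liver *Pck1*, *Pcx* and *Insr* were called lower in the libraries labelled HRD1Alb than in WT, and no member was called higher. In this comparison 4.84% of all genes tested were called lower, 7.09% higher and 11.9% in either direction. *Pck1* was at 55.8% of the refed WT level (log2 difference -0.84, SE 0.19, adjusted p = 0.0376), *Pcx* at 56.7% (-0.82, SE 0.19, adjusted p = 0.0383) and *Insr* at 48.5% (-1.04, SE 0.24, adjusted p = 0.0363). For each of the 3 genes both HRD1Alb libraries lay below both WT libraries. The summed macrophage markers were higher and the summed hepatocyte markers lower in the same HRD1Alb libraries, by the values above, and their part in these differences was not tested. The hepatocyte markers did not move together. In replicate 2 of refed HRD1Alb *Ttr* (6568 CPM) and *Apoa1* (12463) lay above both refed WT libraries. The other hepatocyte markers, among them *Cps1* (1101), lay below both. The 3 calls held without either refed HRD1Alb library. They were all lost when any of the other 6 libraries was left out, with log2 differences that kept their sign, and when only the 4 refed libraries were fitted. *Pcx* was also lost with a correction for transcript length, and *Insr* was then at -0.66 and still called.

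*Igfbp1* was at 53.7 and 15.1 CPM in refed HRD1Alb and at 6.47 and 7.01 in refed WT, a 5.10-fold higher mean. Its log2 difference of 2.35 (SE 0.63, adjusted p = 0.0523) did not pass the threshold. It passed by DESeq2, without the filter on low counts, and without replicate 2 of refed HRD1Alb (2.99), and it was at 1.15, not called, without replicate 1. The remaining members did not pass: *Foxo3* at -1.17 (SE 0.50, adjusted p = 0.147), *Irs2* at -1.34 (SE 0.87, adjusted p = 0.30), *Foxo1* at -0.56 (SE 0.24, adjusted p = 0.151) and *Ppargc1a* at -0.54 (SE 0.50, adjusted p = 0.457) were below WT in both HRD1Alb libraries. *G6pc* and *Fbp1* overlapped with WT, at 0.23 (SE 0.40, adjusted p = 0.701) and 0.31 (SE 0.28, adjusted p = 0.453). In all, 7 members had HRD1Alb below WT without overlap and 1 had it above, where 30.1% and 30.7% of all genes tested did. The median difference was -0.69 beside 0.04 over all genes. The difference of *Irs2* was -4.52 without replicate 1 of refed HRD1Alb and -0.46 without replicate 2, that of *Foxo3* was -2.20 and -0.60, that of *Ppargc1a* -0.34 and -0.79, and those of *G6pc* and *Fbp1* had opposite signs in the 2 fits, at -0.49 and 0.70 and at 0.65 and -0.17. Without replicate 1 the called members were *Pck1*, *Fbp1*, *Pcx*, *Foxo3*, *Irs2* and *Insr*, where 52.8% of all genes tested in that fit were called. Without replicate 2 they were *Pck1*, *Pcx*, *Igfbp1* and *Insr*, where 23.7% of all genes were called.

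**Figure D3:**
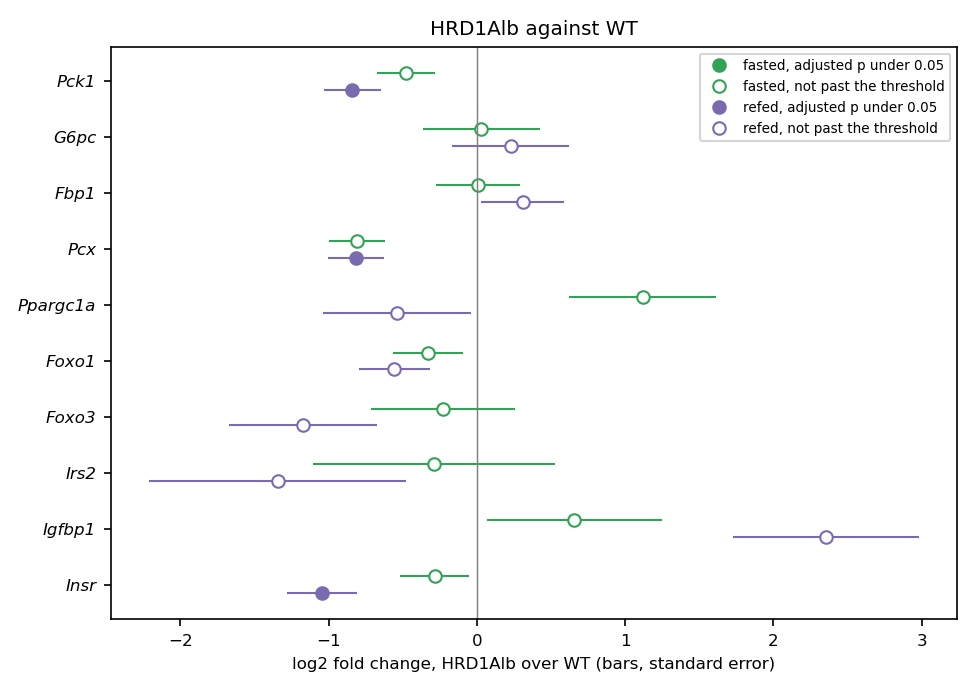
Log2 fold change of HRD1Alb over WT (x) for each of the 10 genes (y) in fasted (green) and refed liver (purple), with bars of 1 standard error from 2 libraries a group; filled circles passed an adjusted p of 0.05. *Pcx* sits at -0.81 and -0.82 in the fasted and refed comparisons, and *Igfbp1* sits to the right, at 0.66 and 2.35.

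The difference between the refeeding responses of the genotypes, tested as an interaction, was called for no member, where 0% of all 14328 genes tested were called. At an unadjusted p under 0.05 there were 1209 genes (8.44%) and 1 member. That member was *Ppargc1a*, which fell more in HRD1Alb by a log2 value of -1.66 (SE 0.70, unadjusted p = 0.0486, adjusted p = 0.590 by edgeR). *Igfbp1* fell less in HRD1Alb, by 1.70 (SE 0.84, adjusted p = 0.604), and *Insr* fell more, by -0.76 (SE 0.33, adjusted p = 0.595). Without replicate 1 of fasted HRD1Alb the value of *Ppargc1a* was -0.66. Without replicate 1 of refed HRD1Alb those of *Igfbp1* and *Insr* were 0.50 and -1.17, without its replicate 2 that of *Insr* was -0.44, and without replicate 2 of fasted WT that of *Igfbp1* was 1.06. DESeq2 called 95 genes and limma-trend 0, with no member among either. The members' median interaction was -0.30 beside 0.03 over all genes. That of *Irs2* was -1.06 with all libraries, -4.23 without replicate 1 of refed HRD1Alb and -0.16 without replicate 2. That of *Foxo3* was -0.94, -1.97 and -0.36 in the same fits. *Foxo3*, *Irs2* and *Insr* were called only without replicate 1 of refed HRD1Alb, where 4878 genes, 33.4% of those tested, were called.

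The members differ in length, so the length trend between the refed HRD1Alb libraries bears on them unequally. Across 10 bins of genes by exon length, the median log2 ratio of replicate 2 to replicate 1 went from 0.88 at 997 bases to -0.82 at 8555 bases in refed HRD1Alb. In the other groups these medians stayed between -0.09 and 0.07. Of the longer members, *Insr* (9355 bases) had a log2 ratio of -0.72, *Foxo1* (8665) -0.28, *Foxo3* (7405) -1.59, *Ppargc1a* (6464) 0.45 and *Irs2* (6323) -3.97. Of the shorter ones, *Fbp1* (1479) had 0.82, *Igfbp1* (1525) -1.83, *G6pc* (2414) -1.19, *Pck1* (2661) 0.29 and *Pcx* (4245) 0.41. *Fbp1* and *Insr* lay near the medians for their lengths, while *Igfbp1*, *G6pc*, *Foxo3* and *Irs2* lay below them and *Ppargc1a*, *Pcx* and *Foxo1* above them. The part of the trend in the members' values was not tested beyond the fits that leave out a library or correct for length.

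**Figure D4:**
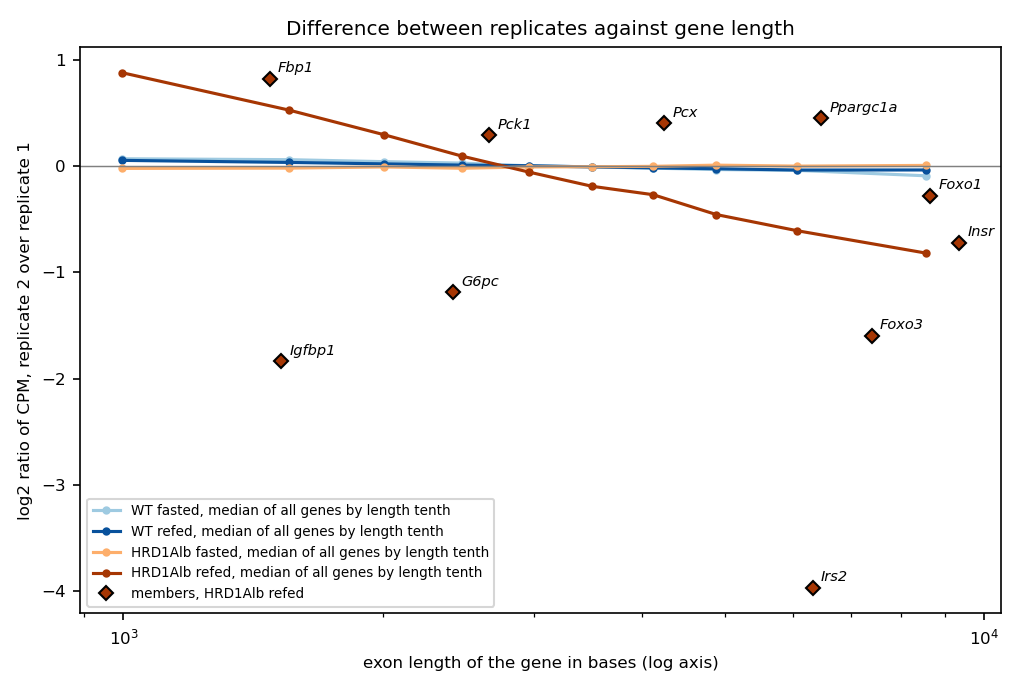
Log2 ratio of normalized CPM of replicate 2 over replicate 1 (y) against exon length in bases on a log axis (x); lines join the medians of all genes in 10 bins by length for each of the 4 groups, and diamonds are the 10 genes in the refed HRD1Alb libraries. The refed HRD1Alb line falls from 0.88 to -0.82 while the others stay near 0, and *Irs2* lies far below it, at -3.97.

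Per kilobase of exon, *Pck1* had the highest level of the 10 in fasted WT, at 1885 CPM per kb and rank 32 of 20953 genes with a length. *Fbp1* followed at 746, *Igfbp1* at 371, *G6pc* at 349 and *Pcx* at 277. The spread of *Igfbp1* and *G6pc* over their libraries covers the difference between them. *Insr* was at 25.2 CPM per kb, and *Foxo1*, *Irs2*, *Ppargc1a* and *Foxo3* were at 5.67, 4.97, 2.71 and 1.53. After refeeding in WT, *Fbp1* was first at 659 CPM per kb and *Pck1* (229) and *Pcx* (227) lay next to each other, within their spread. *Igfbp1* moved from rank 168 to rank 6187 in WT and from rank 82 to rank 2210 in HRD1Alb. *Pck1* moved from rank 32 to 262 and from rank 30 to 469.

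The first companion list held 26 tested genes for other gluconeogenic steps and for the entry of lactate, alanine, glycerol and other substrates. Of these, refeeding called 1 lower in WT (*Got1*, a cytosolic aspartate aminotransferase) and 2 lower in HRD1Alb (*Got1* and *Gyk*, glycerol kinase), and none higher, beside the 1.41% and 5.05% of all genes called lower. Their median log2 change was -0.01 in WT and 0.12 in HRD1Alb. *Pck2*, the mitochondrial counterpart of *Pck1*, was higher in HRD1Alb at both times. It was at 3.87 and 3.89 CPM in fasted WT, at 26.8 and 29.1 in fasted HRD1Alb, at 4.17 and 3.86 in refed WT and at 31.8 and 37.6 in refed HRD1Alb. The log2 difference was 2.85 (SE 0.18, adjusted p = 0.00721) in fasted and 3.11 (SE 0.18, adjusted p = 0.00126) in refed liver. *Gyk*, at 228 and 203 CPM in refed WT and at 112 and 76.7 in refed HRD1Alb, was the other gene of this list called in refed liver (-1.19, SE 0.21, adjusted p = 0.0190).

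Among 28 tested genes for CREB, its coactivators and related regulators, 1 was called higher and 2 lower after refeeding in WT, and 1 higher and 5 lower in HRD1Alb. Over all genes 1.2% were called higher and 1.41% lower in WT and 5.43% and 5.05% in HRD1Alb, and the list's median log2 changes were -0.17 and -0.61. *Ppara*, the receptor that drives fatty acid oxidation in fasting, fell in both genotypes, from 537 and 436 to 219 and 227 CPM in WT and from 325 and 361 to 74.6 and 63.7 in HRD1Alb. *Ppp1r3g*, a glycogen-targeting subunit of a phosphatase, also fell in both, to levels between 0.0263 and 0.219 CPM, with 1 library under the floor. *Crtc2*, a CREB coactivator, was called lower in HRD1Alb (log2 change -0.90, SE 0.15, adjusted p = 0.0157), as were *Ppargc1b* and *Per1*, and *Cebpa* was called higher. None of these was called in WT, where *Crtc2* was at -0.34 and *Ppargc1b* at -0.07. *Per1* was at -2.34 in WT beside -2.32 in HRD1Alb, and *Cebpa* at 0.66 beside 0.69. *Nr0b2*, the repressor SHP, was higher after refeeding in WT (1.30, SE 0.21, adjusted p = 0.0336) and was not called in HRD1Alb, at -0.68 (adjusted p = 0.0824). Between the genotypes none of this list was called in fasted liver, and in refed HRD1Alb *Cebpb* was higher and *Nr0b2* and *Ppara* were lower than in WT.

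Of 27 tested components of insulin signalling, *Pik3r1*, the regulatory subunit of PI 3-kinase, rose with refeeding in both genotypes. It went from 46.7 and 49.7 to 119.6 and 129 CPM in WT and from 42.7 and 51.1 to 113 and 79.6 in HRD1Alb. In WT 1 gene of the list was called higher and 0 lower, and in HRD1Alb 2 higher and 3 lower. Over all genes 1.2% were called higher and 1.41% lower in WT and 5.43% and 5.05% in HRD1Alb. The list's median log2 changes were -0.11 and -0.36. *Pik3ca* and *Rictor* were among those called lower in HRD1Alb, and *Trib3* was called higher. *Trib3*, which encodes a pseudokinase known to bind AKT, was at 6.52 and 7.85 CPM in refed WT and at 241 and 76.7 in refed HRD1Alb (4.47, SE 0.52, adjusted p = 0.00895). It was the single gene of this list called between the genotypes in refed liver, and none was called in fasted liver. Beside this and the other lists, 11.9% of all genes tested were called between the genotypes in refed liver and 1.35% in fasted liver, in either direction.

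Genes known for the same direction as *Pck1* and *Igfbp1* made up the next list. Of 21 other genes induced by fasting, 7 fell and 1 rose in WT, with a median of -0.53, and 8 fell and 1 rose in HRD1Alb, with a median of -0.81, beside the shares over all genes given above. *Angptl4*, an inhibitor of lipoprotein lipase, was at 282 and 200.1 CPM in fasted WT and at 20.3 and 20.8 in refed WT, and at 347 and 292 in fasted and 60.4 and 69.2 in refed HRD1Alb. *Cpt1a*, *Fgf21*, *Insig2*, *Txnip*, *Pdk4* and *Ccng2* also fell in both genotypes, and *Gadd45a* rose in both. Like *Igfbp1*, *Angptl4* and the hormone gene *Fgf21* had higher levels in refed HRD1Alb than in refed WT, and both were called (1.66, SE 0.21, adjusted p = 0.0105, and 3.67, SE 0.23, adjusted p = 0.00148). *Asns* and *Gadd45a* were also higher there and *Cpt1a* and *Mttp* lower, while in fasted liver *Fgf21* alone was called.

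In the opposite class, 6 of 17 genes known to rise with feeding and insulin rose in WT (median 0.77) and 7 in HRD1Alb (median 0.89), and none was called lower, where 1.2% and 5.43% of all genes were called higher. *Acly*, the ATP citrate lyase of fatty acid synthesis, rose from 79.0 and 69.1 to 168 and 261 CPM in WT and from 55.0 and 60.6 to 140.1 and 188 in HRD1Alb. In the refed comparison *Mlxipl*, *Ppp1r3b* and *Scd1* were among those lower in HRD1Alb and *Egr1* was higher. In fasted liver *Me1* and *Scd1* were lower. No gene of the 5 companion lists was called in the interaction. The counts of these lists changed with the refed HRD1Alb libraries, in fits added after the data were seen: in the refed comparison 14, 18, 19, 11 and 8 genes of the glucose output, CREB, insulin signalling, fasting-induced and feeding-induced lists were called without replicate 1, and 10, 7, 7, 12 and 5 without replicate 2, beside 52.8% and 23.7% of all genes. *Pck2*, *Gyk*, *Trib3*, *Angptl4* and *Fgf21* were called in the same direction in both fits, with refed log2 differences of 3.22, -1.50, 3.41, 1.75 and 3.55 without replicate 1 and 2.98, -0.95, 5.07, 1.55 and 3.77 without replicate 2.

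**Figure D5:**
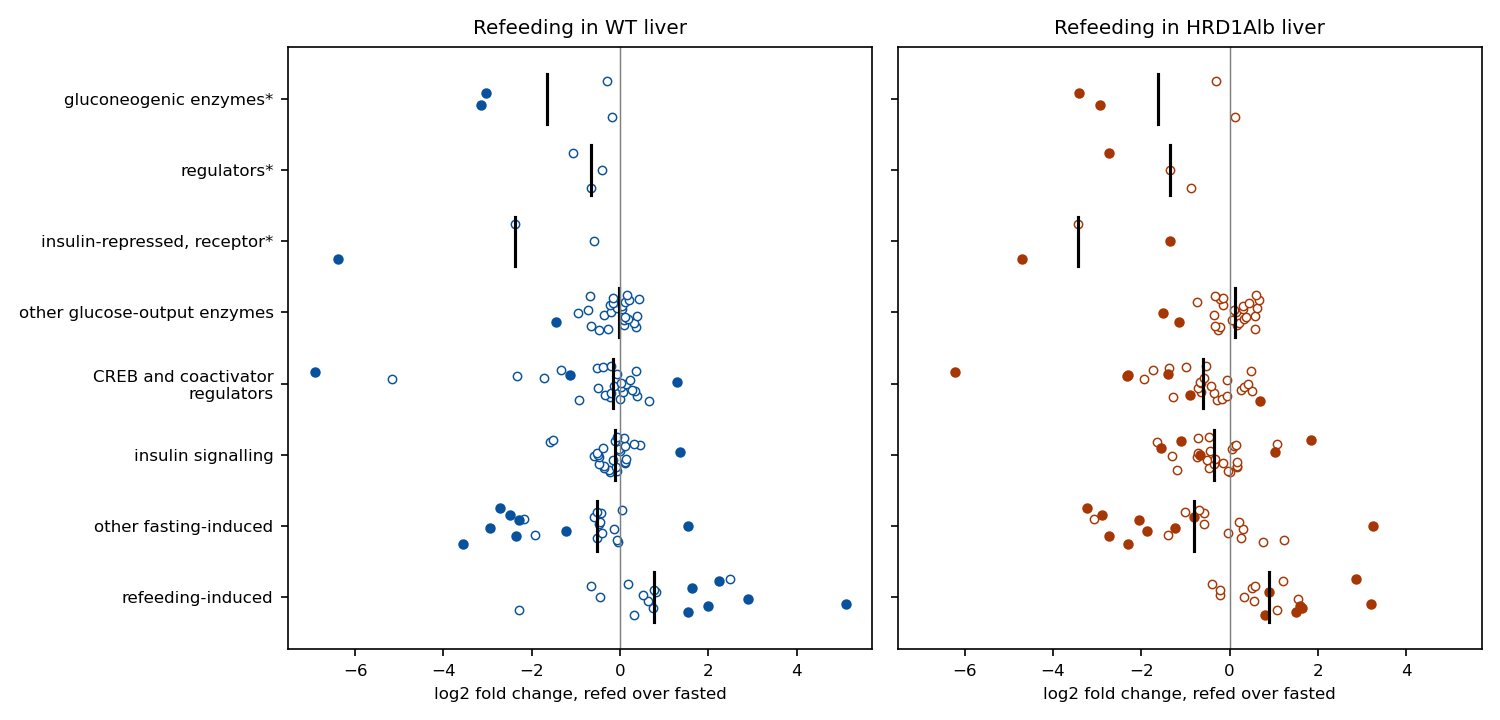
Log2 fold change of refed over fasted liver (x) in WT (left) and in libraries labelled HRD1Alb (right), 1 circle a gene, for the 10 genes in 3 groups (marked with an asterisk) and 5 lists of related genes (y); filled circles passed an adjusted p of 0.05 and black bars are list medians. The other glucose-output enzymes center near 0, at -0.01 and 0.12, and the other fasting-induced genes lie to the left, at -0.53 and -0.81.

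Over the 8 libraries, which share groups and depth, the log2 CPM of *G6pc* and *Igfbp1* correlated at r = 0.965, of *Irs2* and *Insr* at 0.955 and of *Pck1* and *G6pc* at 0.933, as a description of 4 groups of 2. *Fbp1* correlated with *Pck1* at 0.0499. Among 11927 genes with a mean of at least 1 CPM, those most like *Pck1* were *B930025P03Rik* (r = 0.996), *Zfp949* (0.994) and *Galc* (0.994), and those most like *G6pc* were *Fosl2* (0.987), *Ube2h* (0.985) and *Cblb* (0.983). For *Igfbp1* they were *Rnf144a* (0.990), *Sh3glb1* (0.980) and *Camk2d* (0.979), and for *Irs2* they were *Lrp6* (0.997), *Kat2b* (0.994) and *Khnyn* (0.994).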

How the data were processed

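Total RNA from mouse liver was sequenced on an Illumina NextSeq 500. The deposited values are read counts per gene symbol, as whole numbers without normalization, with 1 table for each of the 8 libraries. The authors' methods name ERANGE for counting and RPKM with limma for testing, and the submitters' processing notes name cutadapt, STAR, HTSeq, DESeq2 and mm10 without versions. The annotation and strand setting are not given in the sources used here, and no batch is labelled.

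The quasi-likelihood method of edgeR 4.0.16 (R 4.3.3) was applied to the counts. The filter was filterByExpr (minimum count 10, minimum total 15), libraries were normalized by TMM (factors 0.837 to 1.22), and 1 quasi-likelihood model with 4 group coefficients was fitted to the 8 libraries. The 5 contrasts each had Benjamini-Hochberg adjustment over 14328 genes. Each SE was derived from the F statistic of its gene. An exact permutation test of 2 against 2 libraries cannot go below p = 0.333. Positions and exon lengths (20953 symbols) came from GENCODE M21 and promoters from RefSeq, GRCm38.p6. The detection floor covers counting error only.

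The members and the lists were chosen with earlier results of these data known. Genes of a companion list are named with values by their p (up to 4 in each list and contrast). Other called genes are named by symbol only, apart from *Per1* and *Cebpa*. Some called genes of these lists are not reported here by name. Alternatives were RLE, DESeq2 1.42.0, limma-trend (limma 3.58.1), no filter, at least 10 counts in every library, only the contrast's libraries, the replicate number as a block, a correction for transcript length and each library left out. The main fit, its versions with the replicate block and with the length correction, limma-trend and DESeq2 were first tested on simulated data. The other alternatives were not. Plots used matplotlib 3.10.9 in Python 3.11.15.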

Additional observations from a re-analysis of the deposited data

How the results depend on the processing

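The 11 called values of members kept their direction under all 17 alternatives. With DESeq2, 8 members were called after refeeding in HRD1Alb and 1 between the genotypes in fasted liver, beside 2921 and 1094 genes of the whole table. With only the libraries of the contrast, the 5 comparisons gave 6 members in WT, 0 in HRD1Alb, 1 fasted and 0 refed, the interaction not being possible. Leaving out 1 library at a time changed the number of called members, and the number of called genes over the whole table changed widely too. Each such fit has a lone library in 1 group, and the cause was not tested.

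Genes called over the whole table after refeeding in WT and in HRD1Alb and between fasted and refed genotypes were 374, 1501, 194 and 1709 in the main analysis, 1086, 2921, 1094 and 3178 with DESeq2, 822, 2178, 719 and 2679 with the length correction, and 1882, 0, 2033 and 0 with only the contrast's libraries. No filter gave 323 and the replicate block 119 between fasted genotypes. The length correction moved the share of higher calls from 68.0% to 54.5% between fasted and from 59.4% to 49.3% between refed genotypes.

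Same-numbered replicates deviated together with r between 0.0161 and 0.179, so the numbers were not taken as pairs. With the replicate number as a block, 3 members were called after refeeding in WT and 6 in HRD1Alb, *Foxo1* being the added call. Between fasted genotypes 0 were called, between refed genotypes 3 and in the interaction 0. In the same order, 305, 1343, 119, 1396 and 0 genes of the whole table were called.

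The only signs that reversed were of values not called with all libraries. With the length correction, without and with the block, *Fbp1* was at -0.32 and -0.33 for refeeding in HRD1Alb, at -0.036 and -0.026 between fasted and at -0.12 and -0.12 between refed genotypes, and in the interaction *Fbp1* was at -0.080 and -0.094, *Foxo1* at 0.20 and 0.21 and *Pcx* at 0.14 and 0.10. With RLE and DESeq2 the fasted difference of *Fbp1* was -0.012 and -0.012 and the interaction of *Pcx* 0.0042 and 0.0042, and 8.66e-05 with at least 10 counts in every library. Over the fits without 1 library, *Fbp1* ranged from -0.37 to 0.064 for refeeding in WT, -0.35 to 0.47 in HRD1Alb, -0.18 to 0.25 between fasted and -0.17 to 0.65 between refed genotypes and -0.17 to 0.65 in the interaction. *Foxo3* ranged from -0.73 to 0.047 for refeeding in WT and -0.55 to 0.22 between fasted genotypes, and *G6pc* from -0.28 to 0.44 between fasted and -0.49 to 0.70 between refed genotypes and -0.52 to 0.67 in the interaction. In the interaction *Pcx* ranged from -0.23 to 0.18 and *Foxo1* from -0.48 to 0.045.

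With 2 libraries a group, a call rests on the spread shared across genes. *Irs2* in replicate 2 of refed HRD1Alb rests on 12 counts.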
